A study of Mus musculus with 16 samples.

Results

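B, T and natural killer (NK) lymphocytes are marked by small sets of genes, and 9 such genes were followed across 16 arrays of cells sorted from the mouse olfactory mucosa, where olfactory sensory neurons sit in the lining of the nose. The genes were Cd79a, Cd79b, Ms4a1 and Vpreb3 of B cells, Cd3e, Cd3g, Cd4 and Cd8a of T cells, and Nkg7 of NK and other cytotoxic cells. They were chosen by platform gene symbol from a list of lymphocyte genes. Each had 1 probe set, and together they are 9 of the 19505 named genes on the array. The arrays came from C57BL/6 S100a5-tauGFP mice of both sexes, aged 7 to 12 weeks. These mice carry a green fluorescent protein (GFP) reporter for S100a5, a gene that olfactory neurons switch on with activity. Mice were kept singly in clean air chambers and received undecanal, an aldehyde odorant, or the vehicle, filtered air. The time in the chamber was 40 h, and stimulation began at 26 h, in 10 s pulses at intervals of 20 min. The mucosa of the mice was dissociated and its cells sorted by flow cytometry on GFP. For each agent 4 pools of 3 mice were sorted into 2 fractions, giving 4 arrays in each of 4 groups: undecanal titled GFP+, vehicle titled GFP+, undecanal titled GFP- and vehicle titled GFP-. The reporter and the sort are shared by every group, and no array measured unsorted mucosa.

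For each of the 16 samples the GFP sign in the title was the opposite of the sign among the characteristics. Groups are called by their titles. S100a5 averaged 15.77 ± 0.14 in undecanal arrays titled GFP+ and 16.73 ± 0.31 in undecanal arrays titled GFP- (log2, SD, n = 4 each), and 15.66 ± 0.13 in vehicle arrays titled GFP+ and 16.58 ± 0.26 in vehicle arrays titled GFP-. The reporter gene was thus lower in the fraction titled GFP+, the reverse of what the titles would give. Were the characteristics right, each difference given here as titled GFP+ minus titled GFP- would be one of GFP- minus GFP+ cells. Omp, the marker of mature olfactory neurons, lay between 18.72 and 18.95 on the log2 scale on all 16 arrays, so neuronal RNA was present in both fractions. Arrays have no read depth, and their number limits the precision. Nothing in the labels separates the 4 pools of a group by day or batch.

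The B cell receptor signals through a pair of membrane proteins encoded by Cd79a and Cd79b, which associate with the antibody molecule at the cell surface. Ms4a1 encodes CD20, a membrane protein of B cells, and Vpreb3 encodes a protein related to the surrogate light chain that is made in B cell precursors and in some mature B cells. The T cell receptor signals through the CD3 chains, among them those encoded by Cd3e and Cd3g, and its coreceptors CD4 and CD8 mark helper and cytotoxic T cells. Cd4 and Cd8a are also expressed by some mouse dendritic cells. Nkg7 encodes a granule protein of NK cells and cytotoxic T cells.

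Promoter sequences were found in the RefSeq promoter table (build GRCm38) for 6 of the 9 genes, Cd79a, Vpreb3, Cd3e, Cd3g, Cd8a and Nkg7. Those of 2 B cell genes are shown beside those of a T cell gene and a cytotoxic gene, because the 4 B cell genes shared their 4 highest arrays titled GFP+, which were not the 4 highest of any of the other 5 genes. Each runs 5′ to 3′ on the gene's own strand and spans 300 bases around the annotated start, most of them upstream. The windows are chr7:24897247-24897546 on the plus strand for Cd79a, chr10:75948050-75948349 on the plus strand for Vpreb3, chr9:45009562-45009861 on the minus strand for Cd3e and chr7:43436888-43437187 on the plus strand for Nkg7. Capitals mark matches, on either strand, to the octamer ATTTGCAT, the EBF core CCCNNGGG, the ETS core AGGAAG or the RUNX core TGTGGT, 4 short motifs recognised by transcription factors of lymphoid and other cells.
Cd79a: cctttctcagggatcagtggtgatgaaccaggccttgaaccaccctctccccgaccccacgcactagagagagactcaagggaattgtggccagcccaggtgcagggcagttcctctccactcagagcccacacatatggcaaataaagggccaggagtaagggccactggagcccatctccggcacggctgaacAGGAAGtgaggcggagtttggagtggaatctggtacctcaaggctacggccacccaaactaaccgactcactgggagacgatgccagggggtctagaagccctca
Vpreb3: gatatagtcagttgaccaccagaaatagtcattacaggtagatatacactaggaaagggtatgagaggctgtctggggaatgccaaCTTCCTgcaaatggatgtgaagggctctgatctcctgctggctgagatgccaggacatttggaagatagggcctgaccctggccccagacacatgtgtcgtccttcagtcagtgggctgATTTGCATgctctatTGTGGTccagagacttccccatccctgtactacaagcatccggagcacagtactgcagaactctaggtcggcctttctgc
Cd3e: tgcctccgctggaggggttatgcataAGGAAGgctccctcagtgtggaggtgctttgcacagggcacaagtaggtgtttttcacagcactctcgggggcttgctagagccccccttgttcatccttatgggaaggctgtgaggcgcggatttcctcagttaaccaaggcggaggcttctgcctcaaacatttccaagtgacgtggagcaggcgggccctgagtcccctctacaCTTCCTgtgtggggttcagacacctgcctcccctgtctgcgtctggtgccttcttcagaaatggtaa
Nkg7: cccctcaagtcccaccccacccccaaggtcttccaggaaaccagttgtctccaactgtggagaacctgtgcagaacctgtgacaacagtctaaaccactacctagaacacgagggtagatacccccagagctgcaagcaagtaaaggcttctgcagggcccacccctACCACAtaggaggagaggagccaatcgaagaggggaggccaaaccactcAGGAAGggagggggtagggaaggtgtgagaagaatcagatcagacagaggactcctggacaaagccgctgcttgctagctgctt

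The octamer was present in the Vpreb3 window, with its first base at position -45 from the annotated start, and in 1.74% of all 32851 promoter windows in the table. The ETS core was found at position -55 in the Cd79a window, at -164 on the opposite strand in that of Vpreb3, at -224 and, on the opposite strand, at -17 in that of Cd3e, and at -34 in that of Nkg7. It occurs in 35.4% of all promoter windows, so its presence sets these genes little apart from others. The windows of Cd3g and Cd8a, not shown, held no match to it or to any of the other motifs. The RUNX core stood at position -30 in the Vpreb3 window and, on the opposite strand, at -83 in the Nkg7 window, and in 16.8% of all windows. The letters CCCNNGGG were in none of the 6 windows and in 13.7% of all windows, and no match of one motif overlapped one of another. Only exact matches were counted, so a site that departs from these letters would be missed. A match is a string of letters, and its use in these cells was not tested. Cd3e and Cd3g lie on chromosome 9 on either side of Cd3d, the third CD3 chain gene, and Cd8a lies beside Cd8b1, its partner chain, on chromosome 6.

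Values are the deposited log2 summaries per probe set, and a level is compared between samples only, never between genes. A background level of 4.80 on that scale was taken from vomeronasal and bitter receptor genes, which this tissue is known to leave largely silent. Of the 36 group means of the 9 genes, 18 lay above it: both means titled GFP+ of Cd79a, Cd79b, Ms4a1, Vpreb3, Cd3e, Cd8a and Nkg7, and all 4 means of Cd4. Cd3g was below background in all 4 groups. In the arrays titled GFP- Cd4 was the only one of the 9 genes with a mean above background.

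**Figure D1:**
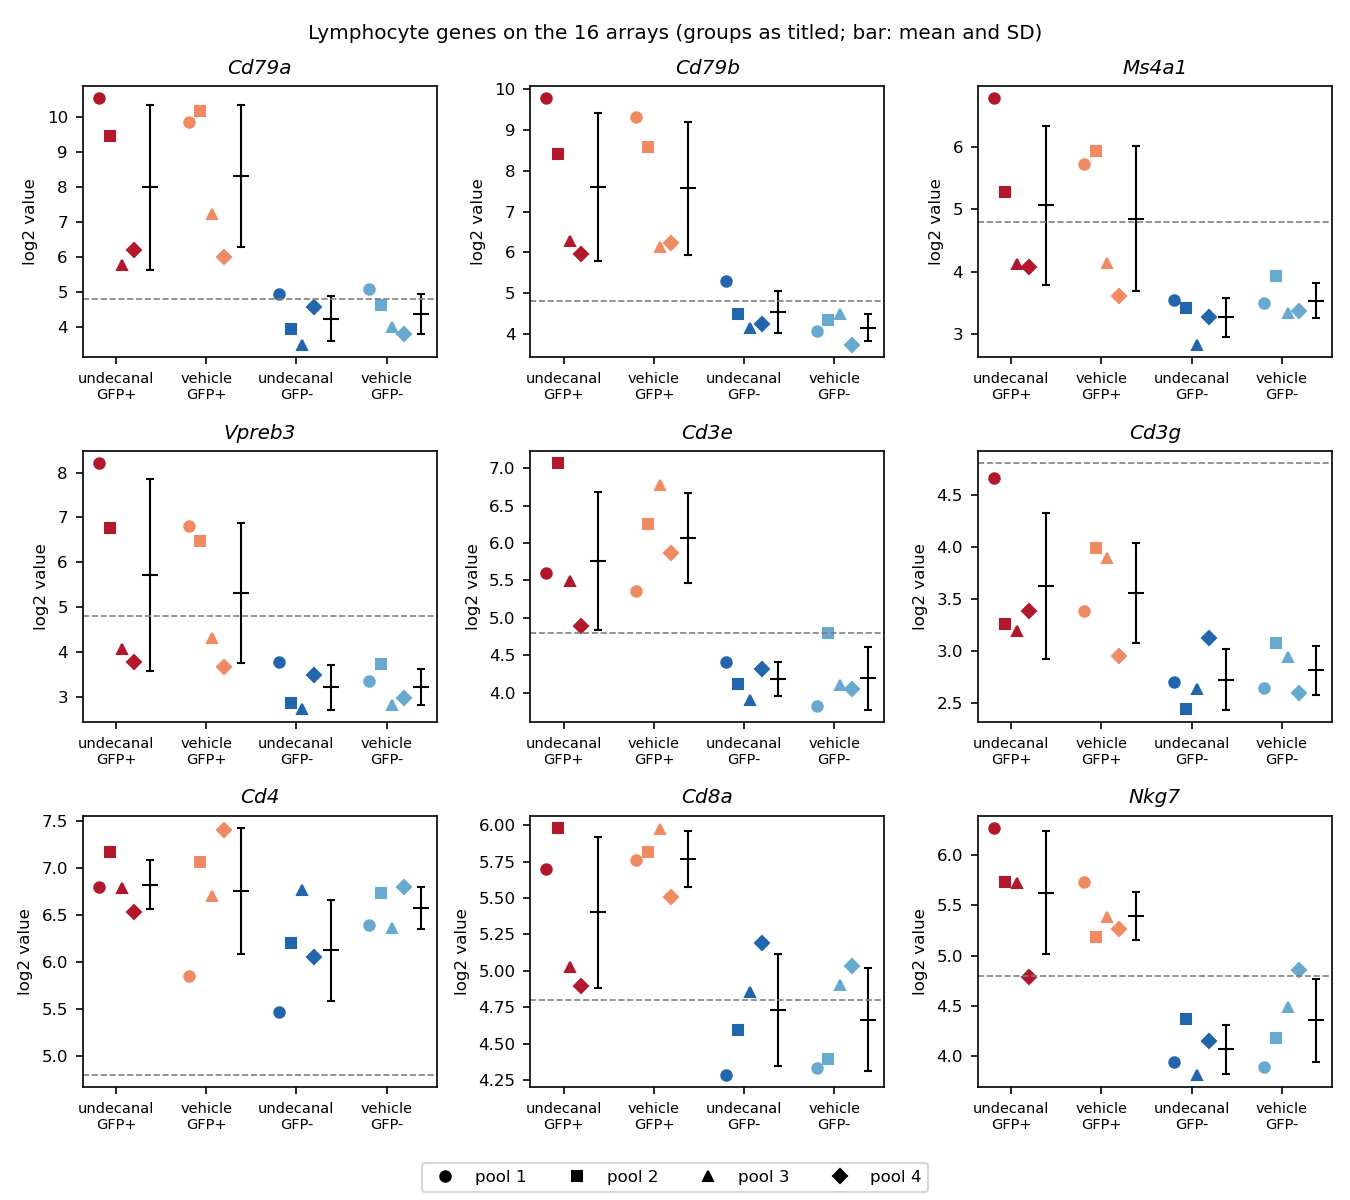
Log2 value (y axis) of each lymphocyte gene on the 16 arrays by titled group, with pool number as marker shape, the black bar giving mean and SD (n = 4) and the dashed line the background level of 4.80. The 4 B cell genes split widely among the arrays titled GFP+, with pools 1 and 2 of both agents above pools 3 and 4.

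The first comparison asked how the lymphocyte genes differed between the 2 sort fractions of the same mice. Levels of 5 of the 9 genes were higher in the fraction titled GFP+ of undecanal pools (Cd79a, Cd79b, Ms4a1, Cd3e and Nkg7), and 5 of the 9 in that of vehicle pools (Cd79a, Cd79b, Cd3e, Cd8a and Nkg7). None was lower. Over all 22206 probe sets tested, 8.83% were higher and 4.36% lower in undecanal pools, and 8.82% were higher and 5.12% lower in vehicle pools, by limma with Benjamini-Hochberg adjusted p under 0.05. All 9 genes had a positive difference under both agents. The median difference over the 9 genes was 1.58 in undecanal pools, against -0.11 over all probe sets, and 1.32 in vehicle pools, against -0.11 over all probe sets. These counts come from a model that does not pair the 2 fractions of a pool. With pool as a fixed block, Vpreb3 (limma adjusted p = 0.0221) and Cd3g (0.0273) also passed in undecanal pools. Ms4a1 (0.0453) and Vpreb3 (0.0477) then passed in vehicle pools, and no call was lost. Of all 22206 probe sets, 2065 were then higher in undecanal pools and 2093 in vehicle pools.

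Among the B cell genes, Cd79a measured 10.55, 9.47, 5.78 and 6.21 in undecanal arrays titled GFP+ of pools 1 to 4, 9.88, 10.18, 7.23 and 5.99 in vehicle arrays titled GFP+, 4.93, 3.95, 3.49 and 4.57 in undecanal arrays titled GFP- and 5.07, 4.62, 3.98 and 3.80 in vehicle arrays titled GFP-. Every array titled GFP+ lay above every array titled GFP- of its agent, but the arrays titled GFP+ themselves fell far apart, with pools 1 and 2 high and pools 3 and 4 low under both agents. Titled GFP+ minus titled GFP-, Cd79a differed by 3.77 in undecanal pools (SE 0.96, limma adjusted p = 0.0117) and 3.95 in vehicle pools (SE 0.96, limma adjusted p = 0.00816). Since the fraction titled GFP- averaged below background, with 1 of 4 arrays above it under each agent, the fold is given as a bound, with each dim array raised to the background level where it lay under it. It was at least 9.0-fold in undecanal pools and at least 10.9-fold in vehicle pools. The call was lost without undecanal pool 1 (limma adjusted p = 0.0613) or 2 (0.0981) in undecanal pools, and without vehicle pool 2 (0.0643) in vehicle pools.

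Cd79b, the partner chain, measured 9.77, 8.41, 6.27 and 5.96 in undecanal arrays titled GFP+, 9.32, 8.59, 6.13 and 6.24 in vehicle arrays titled GFP+, 5.29, 4.50, 4.14 and 4.24 in undecanal arrays titled GFP- and 4.06, 4.33, 4.49 and 3.74 in vehicle arrays titled GFP-. The groups did not overlap between fractions, as was the case for 9.43% of all probe sets in the higher direction in undecanal pools and 9.83% in vehicle pools. The same pools, 1 and 2 of each agent, held the high arrays. The difference was 3.06 in undecanal pools (SE 0.75, limma adjusted p = 0.00843) and 3.41 in vehicle pools (SE 0.75, limma adjusted p = 0.00360), at least 6.42-fold and at least 6.82-fold higher. Without undecanal pool 2 the call in undecanal pools was lost (limma adjusted p = 0.0656).

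Ms4a1, which encodes CD20, measured 6.79, 5.28, 4.13 and 4.08 in undecanal arrays titled GFP+, 5.74, 5.94, 4.13 and 3.60 in vehicle arrays titled GFP+, 3.55, 3.42, 2.82 and 3.26 in undecanal arrays titled GFP- and 3.50, 3.93, 3.34 and 3.37 in vehicle arrays titled GFP-. It exceeded background on 2 of 4 arrays titled GFP+ of each agent, those of pools 1 and 2, and on no array titled GFP-. The difference was 1.80 in undecanal pools (SE 0.53, limma adjusted p = 0.0305), at least 1.20-fold higher, and 1.32 in vehicle pools, which did not pass (SE 0.53, limma adjusted p = 0.122). The undecanal call was lost without undecanal pool 1 (limma adjusted p = 0.134) or 2 (0.112), with trended and robust variance shrinkage (0.0565) and with the control rows kept (0.0635). With pool as a fixed block the vehicle difference passed (limma adjusted p = 0.0453).

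Vpreb3 had the same outline. It measured 8.21, 6.78, 4.08 and 3.79 in undecanal arrays titled GFP+, 6.82, 6.49, 4.31 and 3.66 in vehicle arrays titled GFP+, 3.78, 2.86, 2.74 and 3.48 in undecanal arrays titled GFP- and 3.36, 3.73, 2.81 and 2.98 in vehicle arrays titled GFP-. Pools 1 and 2 again held the 2 arrays of each agent that exceeded background. The difference of 2.50 in undecanal pools (SE 0.81, limma adjusted p = 0.0515) and that of 2.10 in vehicle pools (SE 0.81, limma adjusted p = 0.105) did not pass. The 2 fractions of a pool come from the same mice, and with pool as a random block the undecanal difference passed (limma adjusted p = 0.0262), while the vehicle difference passed with pool as a fixed block (limma adjusted p = 0.0477). Vpreb3 was higher in the fraction titled GFP+ of 8 of 8 pools, by 0.30 to 4.43 on the log2 scale.

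Of the T cell genes, Cd3e measured 5.59, 7.06, 5.49 and 4.89 in undecanal arrays titled GFP+, 5.35, 6.26, 6.77 and 5.87 in vehicle arrays titled GFP+, 4.41, 4.12, 3.90 and 4.31 in undecanal arrays titled GFP- and 3.82, 4.79, 4.10 and 4.05 in vehicle arrays titled GFP-. All arrays titled GFP+ were above background and above all arrays titled GFP- of their agent, and the highest were undecanal pool 2 and vehicle pool 3. The difference was 1.58 in undecanal pools (SE 0.37, limma adjusted p = 0.00606), at least 1.95-fold higher, and 1.87 in vehicle pools (SE 0.37, limma adjusted p = 0.00140), at least 2.40-fold higher.

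Cd3g, a further CD3 chain, measured 4.66, 3.25, 3.19 and 3.38 in undecanal arrays titled GFP+, 3.38, 3.98, 3.89 and 2.95 in vehicle arrays titled GFP+, 2.70, 2.44, 2.63 and 3.12 in undecanal arrays titled GFP- and 2.64, 3.07, 2.94 and 2.59 in vehicle arrays titled GFP-. Every one of these 16 values was below background, so no fold is given. The difference did not pass at 0.90 in undecanal pools (SE 0.29, limma adjusted p = 0.0514) or at 0.74 in vehicle pools (SE 0.29, limma adjusted p = 0.112). The undecanal difference passed with pool as a random block (limma adjusted p = 0.0261), and the value was higher in the fraction titled GFP+ of 8 of 8 pools.

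Cd4, the helper T cell coreceptor, measured 6.80, 7.17, 6.79 and 6.53 in undecanal arrays titled GFP+, 5.85, 7.06, 6.71 and 7.40 in vehicle arrays titled GFP+, 5.47, 6.20, 6.77 and 6.05 in undecanal arrays titled GFP- and 6.39, 6.74, 6.36 and 6.79 in vehicle arrays titled GFP-. The fractions overlapped under both agents and all 16 arrays were above background. The difference was 0.70 in undecanal pools (SE 0.29, limma adjusted p = 0.143) and 0.18 in vehicle pools (SE 0.29, 95% interval -0.43 to 0.80, limma adjusted p = 0.745). Among the 9 genes Cd4 had the smallest difference in vehicle pools, and its sign there changed under 2 of the alternatives tried, with values from -0.17 to 0.43.

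Cd8a, a chain of the cytotoxic T cell coreceptor, measured 5.70, 5.98, 5.03 and 4.90 in undecanal arrays titled GFP+, 5.76, 5.82, 5.97 and 5.51 in vehicle arrays titled GFP+, 4.29, 4.60, 4.85 and 5.19 in undecanal arrays titled GFP- and 4.34, 4.39, 4.90 and 5.03 in vehicle arrays titled GFP-. The fractions of vehicle pools did not overlap, and Cd8a was higher by 1.10 (SE 0.25, limma adjusted p = 0.00449), at least 1.84-fold higher. Those of undecanal pools did overlap, and 0.67 between them did not pass (SE 0.25, limma adjusted p = 0.0914). It passed without undecanal pool 4 (0.99, limma adjusted p = 0.0160), the pool in which Cd8a was lower in the fraction titled GFP+ by 0.29. The difference between the 2 agents' fraction differences was -0.43 (95% interval -1.17 to 0.31) and did not pass (limma adjusted p = 1).

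Nkg7 measured 6.26, 5.73, 5.72 and 4.79 in undecanal arrays titled GFP+, 5.73, 5.18, 5.38 and 5.27 in vehicle arrays titled GFP+, 3.94, 4.37, 3.82 and 4.15 in undecanal arrays titled GFP- and 3.90, 4.18, 4.49 and 4.86 in vehicle arrays titled GFP-. The fractions did not overlap under either agent. The difference was 1.56 in undecanal pools (SE 0.26, limma adjusted p = 0.000305), at least 1.77-fold higher, and 1.04 in vehicle pools (SE 0.26, limma adjusted p = 0.0107), at least 1.49-fold higher. The vehicle call was lost without vehicle pool 1 (0.77, limma adjusted p = 0.126).

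**Figure D2:**
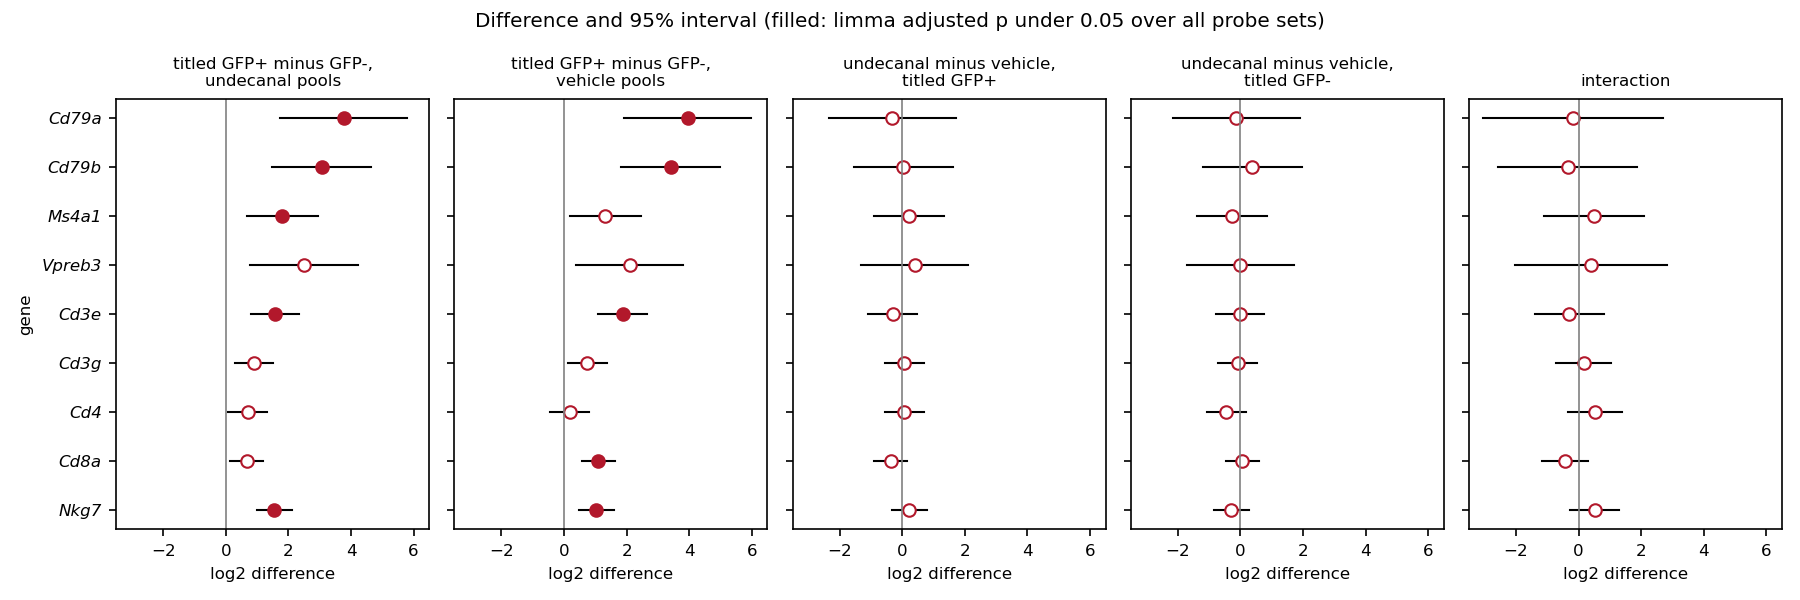
Log2 difference (x axis) with its 95% interval for each lymphocyte gene (y axis) in the 5 comparisons, filled where the limma adjusted p over all probe sets was under 0.05. Both fraction panels hold 5 filled points each, all to the right of 0, and the undecanal and interaction panels hold none.

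Lists of further genes of each lineage were read in the same fit. Of 16 measured genes of B cells, 8 were higher in the fraction titled GFP+ of undecanal pools and 10 in that of vehicle pools, with none lower and list medians of 1.96 and 1.83. Without undecanal pool 1 or without undecanal pool 2 the count in undecanal pools was 5, and without vehicle pool 1 or without vehicle pool 2 that in vehicle pools was 4. Cd37, a tetraspanin that other leukocytes also express, averaged 9.94 in undecanal arrays titled GFP+ and 3.58 in undecanal arrays titled GFP- (difference 6.36, SE 0.54, limma adjusted p = 9.33e-08), and 6.40 separated the fractions of vehicle pools (SE 0.54, limma adjusted p = 8.30e-08). Its values titled GFP- lay below background, so the fold is a bound, at least 35.1-fold in undecanal pools and at least 39.2-fold in vehicle pools. Cd72, a B cell inhibitory receptor, differed by 3.75 in undecanal pools and 4.04 in vehicle pools (SE 0.77 each), and Spib, a transcription factor of B cells and plasmacytoid dendritic cells, by 3.54 and 3.84 (SE 0.50 each), all 4 past the limma threshold. Spib too was below background in the arrays titled GFP-, which leaves at least 4.49-fold in undecanal pools and at least 5.07-fold in vehicle pools. Bank1, a B cell scaffold protein, was higher in vehicle pools (2.47, SE 0.72, limma adjusted p = 0.0256) but did not pass in undecanal pools (2.05, limma adjusted p = 0.0701). Ebf1, a B lineage transcription factor that olfactory neurons also express, was at 16.69 in undecanal arrays titled GFP+ and 16.73 in undecanal arrays titled GFP- and did not pass (limma adjusted p = 0.890).

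Of 9 measured genes of B cell precursors, 3 were higher in undecanal pools and 4 in vehicle pools (2 without vehicle pool 2 or without vehicle pool 4). Il7r, the interleukin 7 receptor chain that T cells also carry, differed by 4.30 in undecanal pools and 3.41 in vehicle pools (SE 0.52 each). Erg, also an endothelial transcription factor, differed by 2.09 and 1.42 (SE 0.30 each). Cd93, also an endothelial and myeloid surface protein, differed by 1.60 and 0.97 (SE 0.28 each), and all of these differences passed. Lef1, also a T cell factor, passed in vehicle pools (0.75, limma adjusted p = 0.0195) and not in undecanal pools (0.64, limma adjusted p = 0.0532). Cd93 and Lef1 were below background in every group, so no fold is given for them. The titled GFP- means of Erg in both agents and of Il7r in undecanal pools were below background, which leaves folds of at least 2.31 for Erg in undecanal pools, at least 1.68 for Erg in vehicle pools and at least 14.2 for Il7r in undecanal pools. The surrogate light chain genes Vpreb1, Vpreb2 and Igll1, the recombinase gene Rag2 and Dntt did not pass under either agent. Of these 5, Igll1 alone had group means above background, at 4.92 in undecanal arrays titled GFP+ and 4.84 in vehicle arrays titled GFP+. Among 8 plasma cell genes, Jchain, the joining chain of secreted antibodies, was higher by 4.85 in undecanal pools (limma adjusted p = 2.89e-07) and 4.94 in vehicle pools (limma adjusted p = 2.19e-07; SE 0.45 each), and the other 7 did not pass; without vehicle pool 2 the count in vehicle pools was 2. Against values titled GFP- below background, Jchain was at least 18.0-fold higher in undecanal pools and at least 15.9-fold higher in vehicle pools.

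Of 17 further T cell genes, 1 was higher in undecanal pools and 2 in vehicle pools, shares near the 8.83% and 8.82% of all probe sets. Cd8b1, the partner chain of Cd8a, averaged 5.69 in undecanal arrays titled GFP+ and 3.77 in undecanal arrays titled GFP- (difference 1.92, SE 0.26, limma adjusted p = 2.97e-05), and 5.65 in vehicle arrays titled GFP+ and 3.54 in vehicle arrays titled GFP- (difference 2.12, SE 0.26, limma adjusted p = 9.48e-06). The titled GFP- values were below background, so it was at least 1.86-fold higher in undecanal pools and at least 1.80-fold higher in vehicle pools. Icos, a costimulatory receptor, was below background in every group and differed by 0.26 in undecanal pools, where it did not pass (limma adjusted p = 0.413), and by 0.63 in vehicle pools, where it did (limma adjusted p = 0.0238), though not without vehicle pool 2 or without vehicle pool 3. The CD3 chain genes Cd3d and Cd247 and the kinase gene Zap70 lay below background in all 4 groups and did not pass. Of 16 NK and cytotoxic genes, 7 were higher in undecanal pools, and 5 were higher and 1 lower in vehicle pools. They included Ccl5, a chemokine of cytotoxic lymphocytes (2.00 in undecanal pools and 2.15 in vehicle pools, SE 0.23 each), Il2rb, an interleukin 2 and 15 receptor chain (2.17 and 1.93, SE 0.29 each), and Gzma, a granule protease (1.54 and 1.26, SE 0.26 each), while Gzmb and Prf1 were below background in all groups. Ccl5 and Il2rb were below background in the arrays titled GFP-, as was Gzma in those of undecanal pools. Their bounds were at least 1.79-fold in undecanal pools and at least 1.93-fold in vehicle pools for Ccl5, at least 1.16-fold and at least 1.15-fold for Il2rb, and at least 2.46-fold in undecanal pools for Gzma. The lower gene was Eomes (-0.56 in vehicle pools, limma adjusted p = 0.0329; the call was lost when each vehicle pool, or undecanal pool 3, was left out in turn), which also lay near 11 on the log2 scale in both fractions.

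Markers of other cell types also differed between the fractions. The 12 neutrophil genes were all higher in the fraction titled GFP+ under both agents, with a median difference of 8.11 in undecanal pools and 8.06 in vehicle pools. Their mean log2 value per array ran from 12.0 to 13.0 in undecanal arrays titled GFP+, 12.2 to 13.1 in vehicle arrays titled GFP+, 4.50 to 5.04 in undecanal arrays titled GFP- and 4.72 to 5.28 in vehicle arrays titled GFP-. All 10 genes shared by leukocytes were higher too, among them Ptprc, which encodes CD45, by 5.37 in undecanal pools and 6.09 in vehicle pools (SE 0.38 each), as were 10 of 11 monocyte and macrophage genes, 7 of 10 dendritic cell genes and 5 of 7 erythroid genes under each agent. The dendritic cell count in vehicle pools was 4 without vehicle pool 1, and 1 further dendritic cell gene, Xcr1, which was below background in both fractions, was lower in vehicle pools (-0.66, limma adjusted p = 0.0328), a call lost when each vehicle pool was left out in turn. Of 19 mature neuron genes, 4 were lower in undecanal pools and 5 in vehicle pools, with none higher. In undecanal pools 0 were called without pool 1, 0 without pool 2 and 2 without pool 3, and in vehicle pools leaving out vehicle pool 1 gave 2, vehicle pool 3 gave 3 and undecanal pool 2 gave 3. The part of these other cells in the lymphocyte values was not tested. In these bulk fractions, more cells of a type and more RNA per cell cannot be told apart.

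The second comparison asked whether undecanal changed the lymphocyte genes within a fraction. None of the 9 genes passed in arrays titled GFP+ (limma adjusted p = 0.999 for each), where 1 of all 22206 probe sets was higher (0.0045%) and 0% lower, and none passed in arrays titled GFP- (limma adjusted p = 0.9999 for each), where 0% of probe sets passed in either direction. At an unadjusted p under 0.05, 603 probe sets lay past the line in arrays titled GFP+ and 914 in arrays titled GFP-, and 0 of the 9 genes did in either. Cd79a differed by -0.32 between undecanal and vehicle arrays titled GFP+, with a 95% interval of -2.35 to 1.72. Vpreb3 differed by 0.39 (-1.32 to 2.11), Cd79b by 0.03 (-1.54 to 1.61) and Ms4a1 by 0.21 (-0.91 to 1.34). The intervals of the B cell genes thus leave room for differences of over 1 log2 unit either way or, for Ms4a1, upward. Those of the T cell and cytotoxic genes were narrower, such as -0.36 for Cd8a (-0.89 to 0.16) and 0.23 for Nkg7 (-0.32 to 0.79). In arrays titled GFP- the largest difference was that of Cd4, -0.45 (-1.06 to 0.16). The interaction, which asks whether the fraction difference itself changed with undecanal, passed for none of the 9 genes and for 0% of probe sets, with 584 probe sets and 0 of the 9 genes at an unadjusted p under 0.05.

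The B cell genes also varied widely between pools of the same group. Over the 8 arrays titled GFP+ the SD was 2.05 for Cd79a, 1.75 for Vpreb3, 1.59 for Cd79b and 1.13 for Ms4a1, which placed them at ranks 5, 7, 10 and 54 of 22206 probe sets by SD. The median SD of all probe sets was 0.26. Cd3e ranked 273 (SD 0.74), Cd3g 994, Cd4 1931, Nkg7 2341 and Cd8a 3206 (SD 0.41). Cd79a spanned 4.77 log2 units across these 8 arrays, and Cd8a 1.08. In the arrays titled GFP-, most of them below background, the SD of the 4 B cell genes was 0.31 to 0.57.

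**Figure D3:**
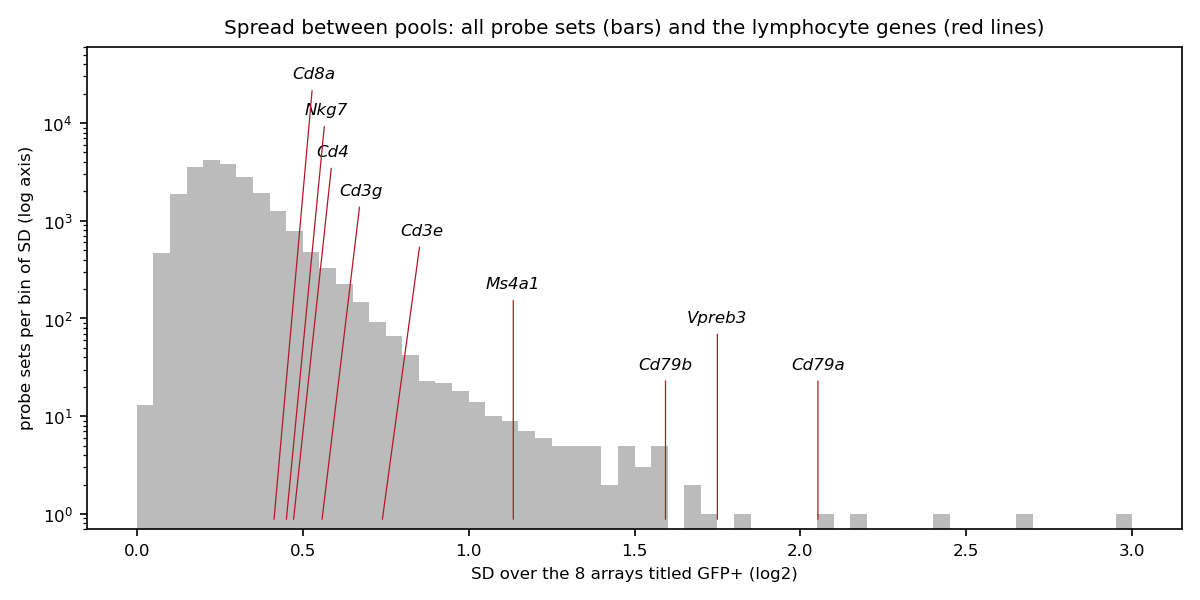
Number of probe sets (y axis, log scale) by their SD over the 8 arrays titled GFP+ (x axis, log2 units), with the lymphocyte genes marked by red lines. Cd79a, Vpreb3, Cd79b and Ms4a1 lie in the far right tail, and the T cell and cytotoxic genes lie closer to the bulk.

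The 4 B cell genes had the same 4 highest arrays titled GFP+, pools 1 and 2 of undecanal and pools 1 and 2 of vehicle. None of the 5 T cell and cytotoxic genes had these as its 4 highest. Of all probe sets, 2.28% (507) shared the 4 highest arrays of Cd79a. Among the further lists, 13 of 16 B cell genes did (81.2%), and 5 of 10 leukocyte genes, 2 of 9 B cell precursor genes, 1 of 17 T cell genes, 1 of 8 plasma cell genes and 1 of 10 dendritic cell genes (Ly6d, which B lineage cells also express). None of the 16 NK and cytotoxic genes, 12 neutrophil genes, 11 monocyte and macrophage genes, 7 erythroid genes or 19 mature neuron genes did. The 3 B cell list genes that did not were Fcer2a, Cr2 and Ebf1. The neutrophil genes had a median SD of 0.42 over the same arrays, against 0.95 for the B cell list. The pool numbers are the labels' replicate numbers, and no label says that pool 1 of undecanal and pool 1 of vehicle share a litter or day.

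**Figure D4:**
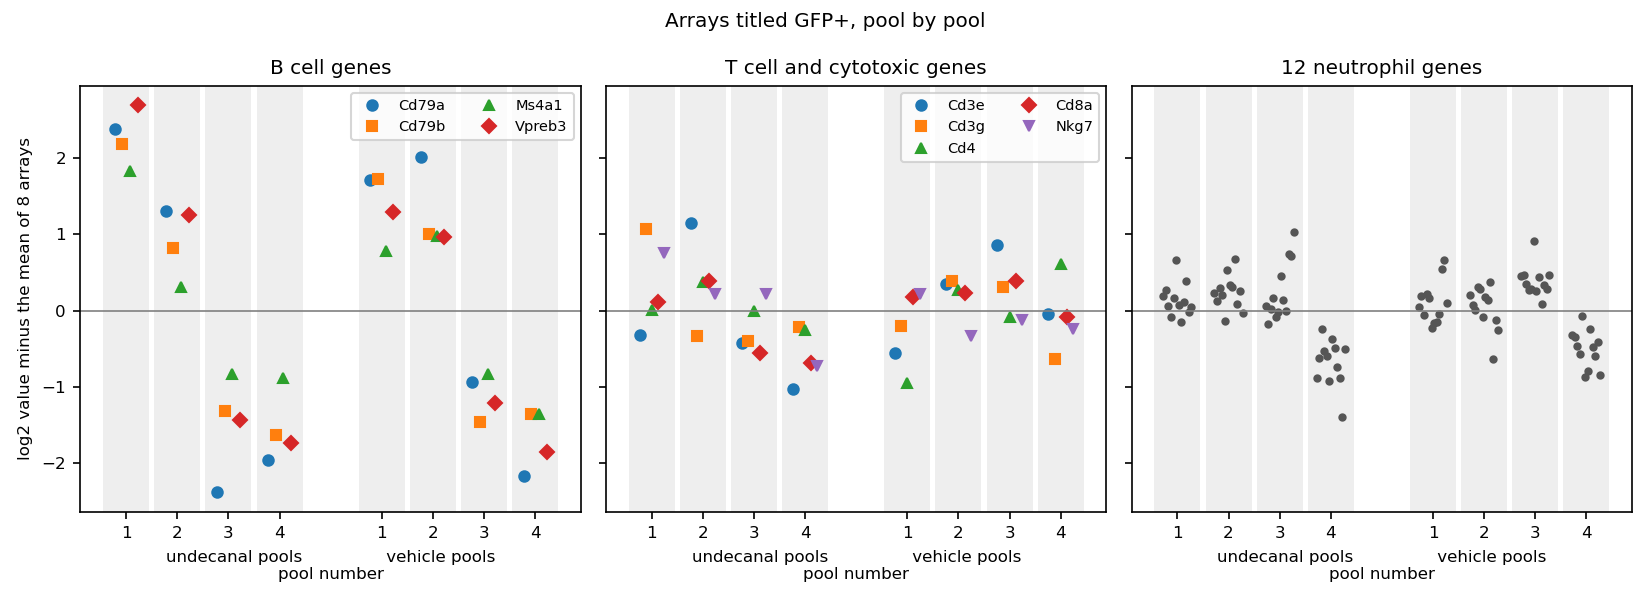
Log2 value minus the mean of the 8 arrays titled GFP+ (y axis) for each pool (x axis), for the 4 B cell genes, the 5 T cell and cytotoxic genes and 12 neutrophil genes. Pools 1 and 2 of both agents lie above 0 for all 4 B cell genes and pools 3 and 4 below, a split that none of the other genes drawn shares.

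Cd79a, Cd79b, Ms4a1, Vpreb3 and Cd8a fell into separate levels among the 8 arrays. Their widest inner gap between neighbouring arrays was 0.359 or more of the whole range, against 0.296 or less for the other 4 genes. The gaps next to the lowest and the highest array were not counted, so a single outlying array makes no level. By this rule, chosen after the values were seen, no correlation test over all 8 is given for pairs of lymphocyte genes that involve them. That left 6 of the 36 pairs, those among Cd3e, Cd3g, Cd4 and Nkg7. Their Pearson r ran from -0.11 to 0.50 and their Spearman rho from -0.29 to 0.64 over 8 pools, and 0 of 6 passed in a two-sided exact permutation test adjusted over the 36 pairs. The highest was that of Cd3e and Cd4, with r = 0.50 (exact permutation p = 0.208, adjusted p = 0.395) and rho = 0.64 (p = 0.0962, adjusted p = 0.266), and r = 0.61 without the 2 arrays farthest from the median of Cd3e.

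The genes whose values across the 8 arrays titled GFP+ were most like each lymphocyte gene were ranked by Pearson r, which serves here only to order them. For genes at separate levels, it includes that split and is no measure of a relation within a level. For Cd79a they were H2-Ob, a class II antigen presentation gene, with r = 0.993, Rasgrp1, a Ras activator, with 0.986, and Mef2c, a transcription factor, with 0.984. For Cd79b they were Scd1, a fatty acid desaturase (0.995), the lymphocyte surface gene Ly6d (0.980) and the activation marker gene Cd69 (0.980). For Ms4a1 they were the inhibitory receptor gene Btla (0.988), the kinase gene Syk (0.988) and Ly6d (0.988), and for Vpreb3 Ly6d (0.983), Scd1 (0.981) and Birc3 (0.978). These 8 points share the split of pools 1 and 2 from pools 3 and 4 described above. All of the genes so ranked for the B cell genes were also higher in the fraction titled GFP+ under both agents, past the limma threshold. H2-Ob was higher by 2.19 in undecanal pools (limma adjusted p = 0.0473) and 2.42 in vehicle pools (limma adjusted p = 0.0260). For Cd69 the differences were 4.49 in undecanal pools and 3.87 in vehicle pools.

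The same ranking was made for the T cell and cytotoxic genes. For Cd3e they were Arhgef40 (0.970), Mrgpre (0.964) and Satl1 (0.950), none of which differed between fractions past the limma threshold. For Cd4 they were Slc1a6 (0.982), Capn6 (0.971) and Atp6ap1 (0.964), and for Cd8a Ier3 (0.952), Xrcc3 (0.945) and Rps24 (0.939). For Nkg7 they were Vav1, a signalling protein of leukocytes (0.985), Ccdc166 (0.970) and Capns1 (0.969). Of these 12 genes, 4 were higher in the fraction titled GFP+ under both agents past the limma threshold: Ier3 by 5.10 in undecanal pools and 5.60 in vehicle pools, Vav1 by 4.00 and 3.67, Rps24 by 0.83 and 0.91, and Capns1 by 0.83 and 0.88. The other 8 did not pass. Of these, Arhgef40, Satl1, Slc1a6 and Capn6 lay below background on all 8 arrays titled GFP+, at 4.01 or less. Values of Cd3g, below background in every group, were not ranked. These are the highest of 22206 coefficients over 8 arrays and carry no test.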

How the data were processed

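Clariom S arrays (16) were hybridised with cRNA from sorted cells. The authors deposited log2 values, 1 per probe set. The submitters' processing notes name Affymetrix Expression Console. Its version, the summary algorithm and the annotation build are not given here in any source used. Of 28846 rows, 6640 control rows were left out and 22206 probe sets tested. In R 4.3.3, limma 3.58.1 (lmFit and eBayes) estimated the 4 group means in 1 model of all arrays, with no block. From it came 5 contrasts, with Benjamini-Hochberg adjusted p over all 22206 and a threshold of 0.05. P-values rest on the spread between pools. The background level is the 95th percentile of group means over 358 vomeronasal and bitter receptor probe sets. The code was tested on simulated data.

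The labels' 24 mice in groups of 3 pair the fractions of a pool; deviations from group means in the 2 fractions had correlations of 0.05 to 0.27, and 6 of 8 pools exceeded 0.1. The 9 genes, the lists and the tests were chosen with earlier results of these data known. From each list up to 4 genes passing in vehicle pools were named by size, or else the 2 with the smallest p, with S100a5, Omp and Ptprc always and, per lymphocyte gene above background in both groups titled GFP+, the 3 genes with the highest r; Ebf1, Eomes, Xcr1, Igll1, Gzmb, Prf1, Cd3d, Cd247, Zap70 and others that characterise a list were named after their values were seen. Alternatives covered scaling, filters, variance shrinkage, array weights, blocks, left-out pools and the adjustment.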

Additional observations from a re-analysis of the deposited data

Results flagged for a closer look

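Of 36 groups of 4 arrays (9 genes in 4 groups), 1 held an array far from the other 3; chance flags about 1 in 20 such groups. Cd3g was at 4.66 in undecanal pool 1 titled GFP+, against 3.38 in the nearest of the other 3 arrays, a gap of 0.872 of the whole range of the group. The value is below the background level of 4.80. Pool 1 of undecanal was also the highest array titled GFP+ for Cd79a, Cd79b, Ms4a1, Vpreb3 and Nkg7.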

How the results depend on the processing

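The 18 fraction differences of the 9 genes were recomputed under 376 alternatives in all: 333 kept their side of the threshold, 15 lost the call, 28 gained it and 0 reversed a called direction, while the sign of Cd4 in vehicle pools changed in 2. The count of genes higher in undecanal pools, 5, was 8 with arrays centred on the mature neuron list and 1 with Benjamini-Yekutieli adjustment, and 2 to 8 when each pool was left out in turn (3 without undecanal pool 1, 2 without pool 2 and 8 without pool 4). The count in vehicle pools, 5, was 3 with Benjamini-Yekutieli adjustment and 4 to 6 with pools left out. For all probe sets, median centring gave 11129 lower in undecanal pools (median difference -0.46) and 11231 in vehicle pools (-0.47), against 969 and 1138; quantile normalization gave 1752 and 1830, and mature neuron list centring 440 and 456 lower beside 2733 and 3047 higher (medians 0.12 and 0.14). With pool as a random block, 1363 were lower in undecanal pools and 1578 in vehicle pools. The pool block changed no call among the 9 genes other than those given for Ms4a1, Vpreb3 and Cd3g. Replicate number as a fixed term across agents, added after seeing the data, brought Ms4a1 (adjusted p = 0.029) and Vpreb3 (0.0221) in vehicle pools and Vpreb3 (0.00748) in undecanal pools past the limma threshold. The term takes up the split of pools 1 and 2 from pools 3 and 4 already seen in these 2 genes, so these passes add no separate evidence. Same-numbered arrays titled GFP+ of different agents had correlations of 0.03 to 0.29, and 1 of 4 exceeded 0.1. The 27 undecanal and interaction results did not pass under any of 537 alternatives, with 47 changes of sign and a lowest adjusted p of 0.978. Among the named list genes, the vehicle pool calls of Bank1, Cd93, Icos, Lef1 and Ly6d were each lost when 1 of 2 or more vehicle pools was left out. So were those of Ncr1 in the NK and cytotoxic list and Pde4a in the mature neuron list. The cause of these changes was not tested. A background level from 5222 negative control rows, 8.70, would leave 0 of the 36 group means above it in place of 18. No bound on a fold could then be given for any of the 9 genes. Of the list genes given a bound, Cd37 and Jchain would keep titled GFP+ means above that level under both agents. With 4 arrays a group and values of the lymphocyte genes near background in the fraction titled GFP-, the size of a fold is limited by the dim side.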
